A study of Homo sapiens with 6 samples.

Results

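The genes described here encode the enzymes that make cholesterol, the SREBP transcription factors that control them, and proteins that move, store or sense sterols, together with enzymes of fatty acid synthesis. They were chosen by name, as 37 gene symbols matched to Ensembl identifiers in GENCODE 29. All 37 were found among the 18677 genes of the deposited table, and all 37 passed the filter on low counts that left 17675 genes for testing. The cells were H1299, a widely used human line derived from a non-small cell lung carcinoma, and 6 RNA-seq libraries of it were compared. In 3 of them the cells carried 1 guide RNA against SETDB1, which encodes a histone methyltransferase that lays down the repressive H3K9me3 mark, and in the other 3 the cells carried 1 control guide. Both kinds of cell were grown in RPMI-1640 medium with serum, antibiotics and puromycin, and no sterol or lipid treatment is named in the labels. Neither the time after editing nor whether the cells were clones or pools is given in the sources used here. Whether the replicates came from different cultures is likewise unknown, so p-values here measure only the spread between these samples, which may be technical.

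Cells build cholesterol from acetyl-CoA through mevalonate, isoprenoids, squalene and lanosterol. When sterols in the endoplasmic reticulum are low, SCAP carries the SREBP precursors to the Golgi, where proteases release the part that enters the nucleus and switches on these genes, and when sterols are high, INSIG proteins hold SCAP back. SREBP2, encoded by SREBF2, is known mainly for sterol synthesis and uptake, and SREBP1, encoded by SREBF1, mainly for fatty acid synthesis. Oxysterols act on a separate pair of receptors, the LXRs, which turn on genes of sterol export and of SREBP1. Serum in culture medium supplies lipoprotein cholesterol, which lowers SREBP processing.

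Levels are in CPM, read counts per 1000000 with library totals scaled by the TMM method, and group levels are a mean ± SD of 3 libraries. A log2 fold change sets the SETDB1 knockout over the control and carries its standard error (SE), and a gene is called where its adjusted p in edgeR's quasi-likelihood test was under 0.05. Library totals ranged from 29532057 to 35941288 counts. The member with the fewest reads in any library still had 130, and the one with the most had 163999. SETDB1 itself had 40.6, 36.1 and 39.1 CPM in the libraries labelled as its knockout, against 45.01, 43.96 and 41.6 CPM with the control guide, a log2 fold change of -0.17 ± 0.06 (SE; edgeR adjusted p = 0.0151). Leaving out replicate 2 of the knockout ended that call, at -0.13, as did scaling by library size alone, at -0.13. The mRNA level alone does not show whether the SETDB1 protein was lost. No protein check is given in the labels, so its loss was not tested here. Of the epithelial markers looked up, KRT8 (control 367 ± 9.58 CPM, knockout 157 ± 0.703 CPM) and KRT18 (control 599 ± 30.7 CPM, knockout 332 ± 6.43 CPM) were abundant and lower in the knockout, and EPCAM had at most 11 counts in a library. Of the mesenchymal markers VIM was abundant (control 2430.2 ± 61.3 CPM, knockout 2216 ± 58.5 CPM), FN1 rose from 41.8 ± 2.09 to 58.1 ± 3.57 CPM and CDH2 fell from 100.4 ± 6.18 to 44.3 ± 2.17 CPM; the part of these shifts in the results was not tested. The macrophage marker CD68 was under 1 CPM in all 6 libraries, and the endothelial marker VWF had at most 12 counts.

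Sterol synthesis genes were lower in the SETDB1 knockout along nearly the whole pathway. Of the 37 genes, 26 were called lower, 4 higher and 7 neither. Over all genes tested, 31.6% were called lower and 31.9% higher, together 63.5%. The median log2 fold change was -0.43 over the 37 and 0.0095 over all genes tested. Among the 18 enzymes of sterol synthesis 16 were lower and 2 higher, with a median of -0.65. For 32 of the 37, all but SREBF1, INSIG1, FASN, ELOVL6 and NR1H3, every library of one group lay above every library of the other, against 66.8% of all genes tested. Most changes were smaller than 2-fold. A decrease of at least 2-fold was called for 4 of the 37 (HMGCS1, MSMO1, SC5D and SCD), against 5.78% of all genes tested, and an increase of at least 2-fold for 0 of the 37, against 7.14%. Tested in edgeR against a fold of 1.5, 12 of the 37 were called lower and 1, NR1H2, higher.

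**Figure D1:**
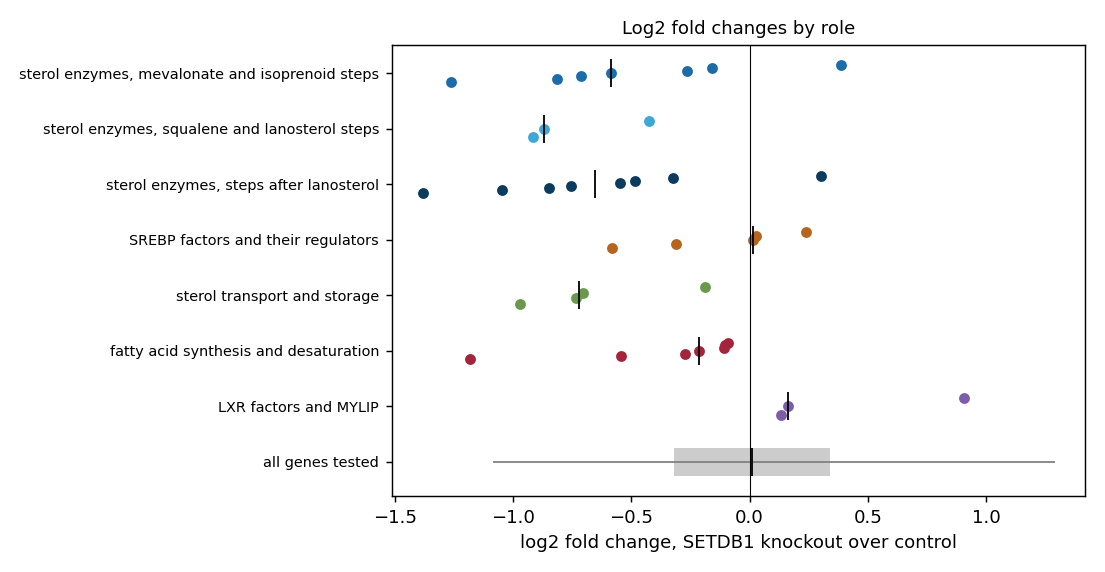
Log2 fold changes of the 37 genes (points, x axis) grouped by role (rows), with each row's median as a black tick; the bottom row shows all 17675 genes tested, with the box from the 25th to the 75th percentile and the line from the 5th to the 95th. The 3 rows of sterol enzymes and the row of sterol transport have medians between -0.87 and -0.59, while the row of fatty acid enzymes has a median of -0.21 with SCD far to the left.

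Promoters of several members are shown because the genes moved together and the control of this pathway is known to act there. SREBPs bind sterol regulatory elements and are known to work with the factors NF-Y and SP1. In the RefSeq promoter windows (GRCh38.p14, 250 bases before to 50 after each start, genes matched by symbol), 33 of the 37 genes had an entry, and ACAT2, FDFT1, SQLE and FASN had none. The 250 bases before the first listed start are printed 5′ to 3′ for HMGCS1 (chr5:43313413-43313662, minus strand) and MSMO1 (chr4:165327419-165327668, plus strand), the most strongly lowered enzymes, for SREBF2 (chr22:41832855-41833104, plus strand), the sterol factor itself, for STARD4 (chr5:111512536-111512785, minus strand), a lowered transport gene, and for PMVK (chr1:154936720-154936969, minus strand), an enzyme that rose. Capitals mark matches to the SREBP consensus TCACNCCAC or to the NF-Y motif CCAAT, each on either strand, and no printed match of one overlaps the other.
HMGCS1: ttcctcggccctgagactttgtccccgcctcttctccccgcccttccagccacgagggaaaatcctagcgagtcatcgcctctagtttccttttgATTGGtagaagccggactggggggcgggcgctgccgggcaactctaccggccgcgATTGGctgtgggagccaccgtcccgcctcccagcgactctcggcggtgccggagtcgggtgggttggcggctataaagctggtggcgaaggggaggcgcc
MSMO1: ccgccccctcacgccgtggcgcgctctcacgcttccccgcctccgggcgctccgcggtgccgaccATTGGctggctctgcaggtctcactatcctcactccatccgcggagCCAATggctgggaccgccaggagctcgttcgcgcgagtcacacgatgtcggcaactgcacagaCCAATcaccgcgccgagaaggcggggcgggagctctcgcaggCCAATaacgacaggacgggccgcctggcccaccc
SREBF2: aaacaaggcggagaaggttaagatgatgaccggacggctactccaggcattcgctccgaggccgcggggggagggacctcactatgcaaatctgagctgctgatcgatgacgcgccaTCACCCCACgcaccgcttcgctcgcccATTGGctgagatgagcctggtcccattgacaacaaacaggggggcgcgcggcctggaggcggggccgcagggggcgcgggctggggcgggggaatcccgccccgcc
STARD4: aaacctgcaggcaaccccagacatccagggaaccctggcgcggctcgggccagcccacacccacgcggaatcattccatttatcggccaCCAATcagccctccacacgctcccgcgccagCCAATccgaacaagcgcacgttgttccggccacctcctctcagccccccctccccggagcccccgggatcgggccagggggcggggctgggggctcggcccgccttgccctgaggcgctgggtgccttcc
PMVK: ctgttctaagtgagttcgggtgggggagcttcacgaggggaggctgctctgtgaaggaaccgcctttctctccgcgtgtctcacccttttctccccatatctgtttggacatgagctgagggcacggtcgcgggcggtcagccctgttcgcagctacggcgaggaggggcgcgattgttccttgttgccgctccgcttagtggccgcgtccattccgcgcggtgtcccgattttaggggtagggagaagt

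The strict SREBP consensus was found in the windows of 1 of the 33 genes, SREBF2, where it starts 133 bases before the start site with a CCAAT match on the opposite strand 106 bases before it. Over all genes with a window, 1.39% held this consensus, and 1.44% of the 11144 tested genes with a window did. Known sterol regulatory elements often differ from the consensus, and such variants were not searched for. The CCAAT motif was present for 24 of the 33 members (72.7%) and for 13 of the 15 sterol enzymes with a window (86.7%), against 39.7% of all genes with a window and 43% of the tested ones. The printed HMGCS1 and STARD4 stretches hold 2 CCAAT matches each and that of MSMO1 holds 4, and the PMVK stretch holds none. Among called members with a window, most of those that fell have at least 1 CCAAT match, and PMVK, SCAP and NR1H2 have none and rose. CYP51A1, NPC1, INSIG2 and FADS1 have no match and fell, and TM7SF2 has 1 and rose. Most members hold CCAAT and few rose, so these counts cannot tie the motif to the direction of change. SCAP, NR1H2, TM7SF2 and INSIG2 also lost their calls when the median log2 fold change of neighbouring genes was taken out. A link was not tested. The SP1 motif GGGCGG was present for 32 of the 33 members (97%) and for 76.1% of tested genes with a window. Counted per window in place of per gene, CCAAT was in 75% of the 20 windows of sterol enzymes and in 34.6% of all 35116 windows. These matches describe the letters of the windows and show no binding.

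In the first part of the pathway, from acetyl-CoA to the isoprenoids, 6 of 7 genes fell and 1 rose, with a median log2 fold change of -0.59. HMGCS1 (chromosome 5, 43289395 to 43313512, GRCh38) encodes the cytosolic synthase that makes HMG-CoA, the precursor of mevalonate. Its level was 98.2, 98.6 and 96.3 CPM in the knockout libraries, against 227, 227 and 251 CPM in those of the control. Every knockout library was more than 2-fold below every control library, and the log2 fold change was -1.26 ± 0.06 (SE; edgeR adjusted p = 1.75e-13). IDI1, the isomerase that activates isopentenyl diphosphate, stood at 41.7, 46.4 and 47.5 CPM in the knockout and 74.9, 78.3 and 85.2 CPM in the control. MVK, which phosphorylates mevalonate first, stood at 13.1, 13.9 and 13.6 CPM against 23.6, 21.3 and 21.6 CPM. Neither gene's groups overlapped, with log2 fold changes of -0.81 ± 0.06 and -0.71 ± 0.07 (SE; edgeR adjusted p = 6.77e-10 and 1.79e-08).

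The next kinase did the reverse. PMVK, which adds the further phosphate to mevalonate, stood at 18.1, 18.2 and 18.96 CPM in the knockout and at 13.2, 14.00 and 14.97 CPM in the control. The knockout libraries were all higher, with a log2 fold change of 0.39 ± 0.07 (SE; edgeR adjusted p = 6.18e-05). MVD, the decarboxylase after it, fell from 56.1 ± 2.81 to 37.3 ± 1.55 CPM, a log2 fold change of -0.59 ± 0.06 (SE; edgeR adjusted p = 2.46e-08). ACAT2, the cytosolic thiolase at the start of the pathway, fell less, from 129.5 ± 10.4 to 108 ± 4.76 CPM, at -0.27 ± 0.06 (SE; edgeR adjusted p = 6.72e-04). FDPS, which makes farnesyl diphosphate for sterols and for protein prenylation, had the smallest change of the 18 enzymes, from 191 ± 3.93 to 171 ± 3.29 CPM, at -0.16 ± 0.05 (SE; edgeR adjusted p = 0.00893). Of the annotated ACAT2 exon bases, 52.3% overlap exons of genes on the other strand, so its count depends on how the authors' counter treated such reads. FDPS, HSD17B7, CYP51A1 and SCD have pseudogene copies in GENCODE 29 that may share reads with them, and their levels are uncertain to that extent. Such copies were not listed for every member, so other members may have them too.

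**Figure D2:**
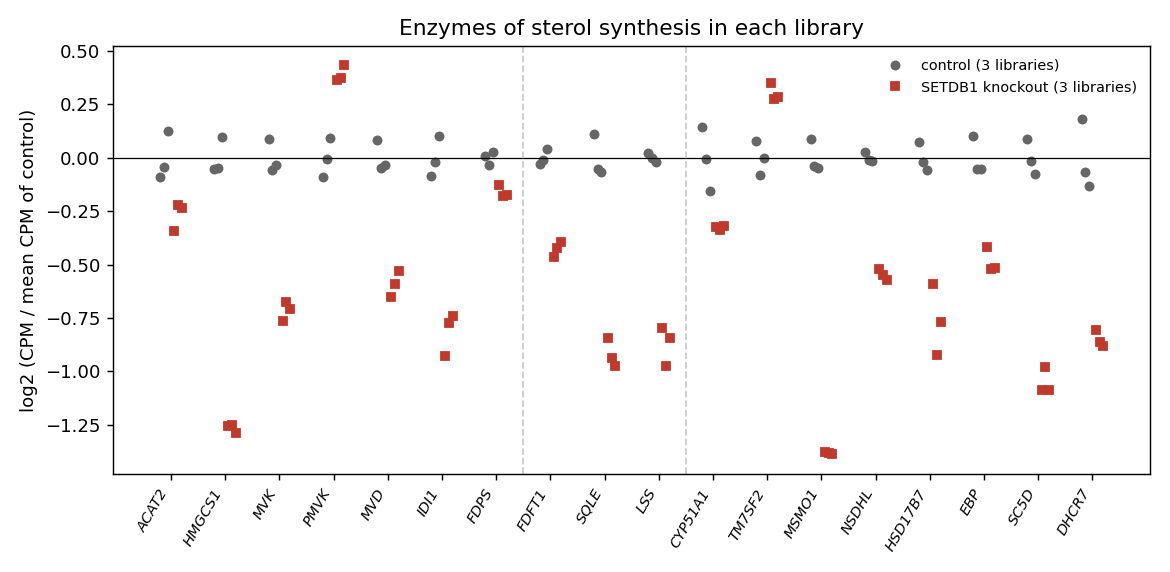
Level of each sterol enzyme in each of the 6 libraries (y axis, log2 of the CPM over the control mean; x axis, genes in pathway order, with dashed lines before the squalene steps and before the steps after lanosterol). Grey circles are the 3 control and red squares the 3 SETDB1-knockout libraries; red lies below grey for 16 genes and above it for PMVK and TM7SF2.

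All 3 enzymes that commit farnesyl units to sterols fell. SQLE, squalene epoxidase, a rate-limiting step, was the most abundant sterol enzyme here per kilobase of exon and stood at 262, 246 and 239 CPM in the knockout against 508, 454 and 449 CPM in the control. LSS, which closes the ring system to lanosterol, stood at 89.9, 79.6 and 87.3 CPM against 159, 156 and 154 CPM. FDFT1, squalene synthase, stood at 131, 135 and 138 CPM against 178, 180.3 and 186 CPM. The groups did not overlap for any of the 3 genes, and the decrease in FDFT1 was the smallest. Log2 fold changes were -0.92 ± 0.06 (SE; edgeR adjusted p = 7.40e-11) for SQLE, -0.87 ± 0.05 (SE; edgeR adjusted p = 4.29e-11) for LSS and -0.43 ± 0.05 (SE; edgeR adjusted p = 4.32e-07) for FDFT1. The genes around SQLE had a median of 0.295, so SQLE moved against its surroundings.

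Of the 8 enzymes that turn lanosterol into cholesterol, 7 fell and 1 rose, with a median log2 fold change of -0.65. MSMO1 (chromosome 4, 165327623 to 165343160), the sterol methyl oxidase whose promoter stretch is printed above, had the largest decrease of all 37 genes. It stood at 52.7, 52.6 and 52.3 CPM in the knockout and at 145, 133 and 132 CPM in the control, a log2 fold change of -1.38 ± 0.05 (SE; edgeR adjusted p = 3.10e-14). The knockout libraries lay within 1 CPM of each other. SC5D, a sterol desaturase, stood at 53.3, 57.3 and 53.1 CPM against 120.0, 112 and 107 CPM, and its log2 fold change was -1.05 ± 0.06 (SE; edgeR adjusted p = 4.25e-12). DHCR7, a reductase of the last steps, stood at 157, 152 and 149 CPM against 312, 263 and 251 CPM, and its log2 fold change was -0.85 ± 0.07 (SE; edgeR adjusted p = 1.45e-09). Control replicate 1 was the highest library for DHCR7, and for MSMO1 and SC5D as well.

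HSD17B7, a ketoreductase, fell from 16.3 ± 0.764 to 9.68 ± 1.11 CPM. NSDHL, which acts with MSMO1 in removing methyl groups, fell from 57.9 ± 0.868 to 39.6 ± 0.689 CPM, and EBP, the sterol isomerase, from 99.9 ± 6.41 to 71.5 ± 2.93 CPM. These 3 log2 fold changes were -0.76 ± 0.08, -0.55 ± 0.05 and -0.48 ± 0.06 (SE; largest edgeR adjusted p = 3.43e-07). With the neighbour median taken out NSDHL was at -0.30, still called. CYP51A1, the lanosterol demethylase, fell from 18.8 ± 1.95 to 14.98 ± 0.117 CPM at -0.32 ± 0.08 (SE; edgeR adjusted p = 9.18e-04), and with the neighbour median taken out it was at -0.20, still called. Its level is uncertain, since 83.2% of its annotated exon bases overlap exons of 3 other genes, of which 2 lie on the same strand. TM7SF2, a sterol reductase of the endoplasmic reticulum and nuclear envelope, was the enzyme that rose, at 27.6, 26.1 and 26.3 CPM in the knockout and 22.8, 20.5 and 21.6 CPM in the control. Its groups did not overlap, but the log2 fold change of 0.30 ± 0.06 (SE; edgeR adjusted p = 3.09e-04) became 0.14 and lost its call when the median of the neighbouring genes was taken out.

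**Figure D3:**
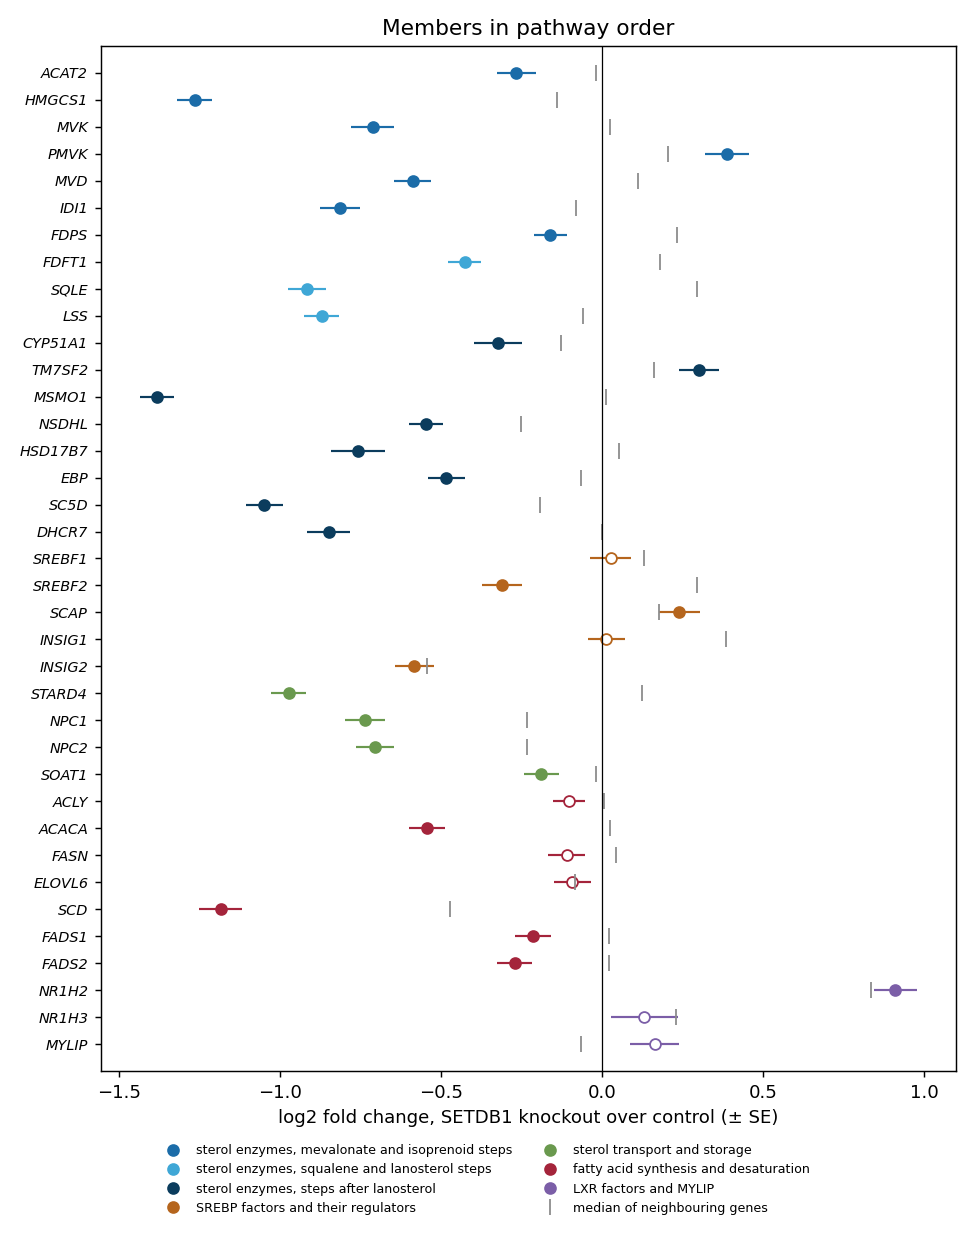
Log2 fold change of each of the 37 genes (x axis, SETDB1 knockout over control, points with SE bars) in pathway order (y axis); filled points were called, open points were not, and grey ticks mark the median log2 fold change of up to 25 expressed genes on each side. MSMO1 lies farthest left at -1.38 and NR1H2 farthest right at 0.91.

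Of the 5 genes of the SREBP machinery, 2 fell, 1 rose and 2 were not called, with a median log2 fold change of 0.012. These counts stand beside 31.6% called lower and 31.9% called higher over all genes tested, and do not set the 5 genes apart. SREBF2 (chromosome 22, 41833079 to 41907308), whose promoter stretch above holds the SREBP consensus, stood at 234, 219.9 and 214 CPM in the knockout and at 300.1, 273 and 255 CPM in the control. All knockout libraries were below all control libraries, at -0.31 ± 0.06 (SE; edgeR adjusted p = 1.98e-04), while the genes around it had a median of 0.29. With that taken out its log2 fold change was -0.60, still called. SREBF1 stood at 350.1, 323 and 334 CPM against 365, 324 and 299.8 CPM. Its groups overlapped, and it was not called, with a log2 fold change of 0.026 ± 0.06 (SE; edgeR adjusted p = 0.741) whose sign changed in 3 of 17 alternatives. SREBF1 has transcripts with different first exons, which a count per gene does not separate.

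SCAP, the escort protein of the SREBPs, stood at 144, 139 and 139 CPM in the knockout and 133, 116 and 108 CPM in the control. The groups did not overlap and SCAP was called higher at 0.24 ± 0.06 (SE; edgeR adjusted p = 0.00261), but with the neighbour median of 0.18 taken out the call was lost at 0.064. The INSIG genes encode the proteins that retain SCAP, and INSIG1 is itself a known SREBP target. INSIG1 (chromosome 7, 155297776 to 155310235) stood at 235, 244 and 224 CPM in the knockout and 249, 228 and 221 CPM in the control. Unlike the enzymes, its groups overlapped, and it was not called, at 0.012 ± 0.06 (SE; edgeR adjusted p = 0.865). Its neighbours had a median of 0.38, and with that taken out INSIG1 was called lower, at -0.37. INSIG2 (chromosome 2, 118088452 to 118110997) stood at 26.1, 27.7 and 25.3 CPM against 41.2, 39.9 and 37.6 CPM, with no overlap, and was called lower at -0.58 ± 0.06 (SE; edgeR adjusted p = 6.12e-08). Its neighbours were lower to the same extent, with a median of -0.54, and with that taken out INSIG2 lost its call, at -0.04.

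**Figure D4:**
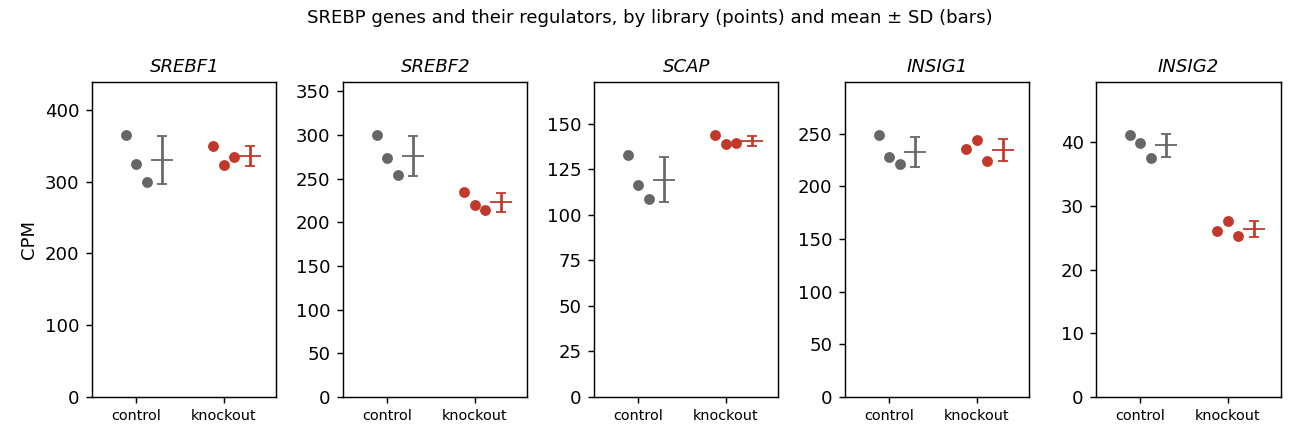
CPM of the SREBP genes and their regulators in each library (points; y axes start at 0 and differ between panels), with the mean ± SD of the 3 libraries of each group beside them. SREBF2 and INSIG2 are lower and SCAP higher in the knockout without overlap, and the groups of SREBF1 and INSIG1 overlap.

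The 4 members that move and store sterols all fell, with a median log2 fold change of -0.72, where 31.6% of all genes tested were called lower. This did not extend to the 16 other genes of sterol uptake and transport given below. Of those 7 fell, 3 rose and 6 were not called, with a median of -0.15. STARD4, a soluble sterol carrier and known SREBP2 target, stood at 35.6, 38.4 and 37.95 CPM in the knockout and at 74.2, 73.8 and 71.8 CPM in the control, and its log2 fold change was -0.97 ± 0.05 (SE; edgeR adjusted p = 5.21e-12). The partners NPC1 and NPC2 pass cholesterol from endocytosed lipoproteins out of lysosomes. NPC1 stood at 154, 146 and 149.8 CPM against 276, 243 and 231 CPM, at -0.74 ± 0.06 (SE; edgeR adjusted p = 3.27e-09). NPC2 stood at 107, 100.3 and 96.7 CPM against 177, 162 and 157 CPM, at -0.71 ± 0.06 (SE; edgeR adjusted p = 2.41e-09). Both lay among genes with a median of -0.23, and with that taken out their log2 fold changes were -0.50 and -0.47, both still called. SOAT1, which esterifies cholesterol for storage, fell only from 150.0 ± 7.47 to 132 ± 5.06 CPM, at -0.19 ± 0.05 (SE; edgeR adjusted p = 0.00493).

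Decreases among the 7 fatty acid synthesis members were smaller than among the sterol enzyme members, with SCD as the exception. Of 7 genes, 4 fell, 0 rose and 3 were not called, and the median log2 fold change was -0.21, against -0.65 for the 18 sterol enzymes. SCD (chromosome 10, 100347124 to 100364834), the stearoyl-CoA desaturase that makes monounsaturated fatty acids, was the most abundant of the 37 genes per kilobase of exon and stood at 2265, 2039 and 2014 CPM in the knockout against 5132, 4589.5 and 4632 CPM in the control. Every knockout library was more than 2-fold below every control library, and the log2 fold change was -1.18 ± 0.07 (SE; edgeR adjusted p = 6.27e-12). The genes around SCD had a median of -0.47, and with that taken out SCD was still called, at -0.71. ACACA, the acetyl-CoA carboxylase that makes malonyl-CoA, stood at 155, 142 and 141 CPM against 224, 207 and 209.6 CPM. FADS2, a desaturase of polyunsaturated fatty acids, stood at 35.2, 34.4 and 34.5 CPM against 43.8, 40.6 and 41.2 CPM. The groups of ACACA and FADS2 did not overlap, with log2 fold changes of -0.54 ± 0.06 and -0.27 ± 0.06 (SE; edgeR adjusted p = 5.33e-08 and 2.56e-04). FADS1, its partner desaturase in the same cluster, fell from 348 ± 16.97 to 300.1 ± 12.6 CPM at -0.21 ± 0.06 (SE; edgeR adjusted p = 0.00227).

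FASN, ACLY and ELOVL6 were not called. FASN, fatty acid synthase, stood at 649, 627 and 666 CPM in the knockout and at 747, 686 and 662 CPM in the control, with overlapping groups and a log2 fold change of -0.11 ± 0.06 (SE; edgeR adjusted p = 0.105). It was called lower without control replicate 3, with the replicate number as a block and with the neighbour median taken out, at -0.15, -0.11 and -0.15. ACLY, which makes cytosolic acetyl-CoA from citrate for both pathways, had 226 ± 3.30 CPM in the knockout and 242 ± 6.93 CPM in the control (edgeR adjusted p = 0.0854), and it was called with the replicate number as a block. ELOVL6, an elongase, had 91.2 ± 5.30 and 97.2 ± 5.99 CPM (edgeR adjusted p = 0.173). The mean log2 CPM of the 18 sterol enzymes was 5.73, 5.71 and 5.73 in the knockout libraries and 6.36, 6.29 and 6.31 in the control libraries. For the 7 fatty acid genes it was 7.94, 7.87 and 7.86 and 8.33, 8.20 and 8.22. In each library the sterol mean minus the fatty acid mean was -2.21, -2.15 and -2.14 in the knockout and -1.96, -1.92 and -1.92 in the control, lower in every knockout library than in any control library. The lists are small and chosen by name, so this difference between them is a description. It did not hold in the lists of other genes of these pathways given below.

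Of the LXR genes NR1H2 and NR1H3 and of MYLIP, 1 was called higher and 0 lower. Over all genes tested these shares were 31.9% and 31.6%, so counts over 3 genes say little. NR1H2, which encodes the widely expressed LXR beta, stood at 35.8, 38.7 and 37.6 CPM in the knockout and 21.3, 18.01 and 20.5 CPM in the control, the largest increase of the 37 genes at 0.91 ± 0.07 (SE; edgeR adjusted p = 4.17e-10). NR1H2 (chromosome 19, 50329653 to 50382982) lies among expressed genes with a median of 0.83, and with that taken out it was not called, at 0.076. NR1H3, which encodes LXR alpha, was the least abundant of the 37 genes per kilobase of exon. It had 5.19 ± 0.344 CPM in the knockout and 4.74 ± 0.435 CPM in the control and was not called (edgeR adjusted p = 0.289). MYLIP, an LXR target that encodes a ubiquitin ligase for lipoprotein receptors, had 14.00 ± 0.912 and 12.5 ± 0.83 CPM. It missed the threshold at 0.16 ± 0.08 (SE; edgeR adjusted p = 0.0713), with all knockout libraries above all control libraries, and passed it with library size alone, with upper-quartile scaling and with the neighbour median taken out.

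**Figure D5:**
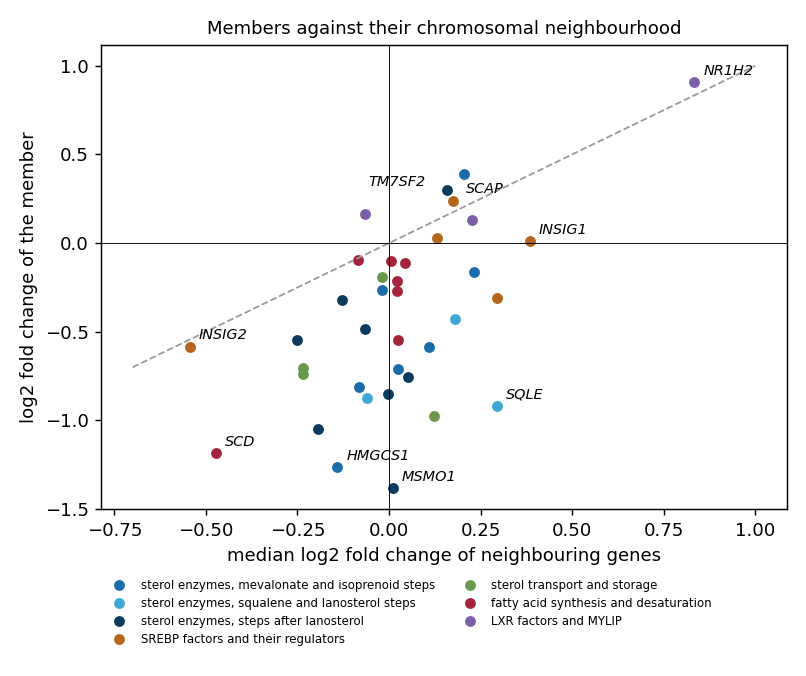
Log2 fold change of each of the 37 genes (y axis) against the median log2 fold change of up to 25 expressed genes on each side of it (x axis); on the dashed line a gene moves as its neighbours do. INSIG2 and NR1H2 lie near the line, while most sterol enzymes lie below it at neighbour medians near 0.

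Stretches of the genome in which most genes moved one way touched several of these genes. The neighbour median was at least 0.3 in size for 4 of the 37: NR1H2, INSIG2, SCD and INSIG1. SQLE and SREBF2 lay just under that size, each at 0.295. SCAP and TM7SF2, at smaller medians of 0.18 and 0.16, lost their calls when it was taken out. Over the 18 sterol enzymes the neighbour medians had a median of 0.0045, and the median of each gene's log2 fold change minus its neighbours' was -0.71. With the neighbour median taken out in the fit, 27 of the 37 were called lower and 2 higher, and of the sterol enzymes 16 lower and 1 higher. PMVK was then the enzyme called higher, at 0.18, and FDPS, among neighbours at 0.23, was at -0.39.

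Ordered by level per kilobase of exon in the control, SCD came first at 892 CPM per kilobase, followed by SQLE at 109, FASN at 74.6, DHCR7 at 66.2 and INSIG1 at 63.7. In the knockout SCD still came first at 393, then FASN at 69.1, INSIG1 at 64.3 and SQLE at 57.9. HMGCS1 went from rank 8 to rank 16 and MSMO1 from rank 9 to rank 19. Exon lengths are of all annotated transcripts together, so these levels are approximate.

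Other genes of the same pathways were looked at from lists that were fixed by name. Of 73 such genes 69 were tested, of which 34 were called lower, 18 higher and 17 neither, with a median log2 fold change of -0.18. Over all genes tested, 31.6% were called lower and 31.9% higher, together 63.5%, and the counts of each list below stand beside these shares. Among 16 other genes of sterol uptake and transport 7 fell and 3 rose. VLDLR, a receptor for triglyceride-rich lipoproteins, fell from 62.4 ± 4.47 to 23.5 ± 1.32 CPM at -1.41 ± 0.06 (SE; edgeR adjusted p = 3.02e-13), among neighbours with a median of -0.30. GRAMD1A, which moves cholesterol from the plasma membrane to the endoplasmic reticulum, fell from 77.2 ± 4.03 to 46.7 ± 1.26 CPM, among neighbours with a median of -0.90. The sterol-binding protein gene OSBPL5 rose from 3.07 ± 0.661 to 4.55 ± 0.346 CPM, and the caveolin gene CAV1 from 269.8 ± 4.34 to 321 ± 19.8 CPM.

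Among 11 other genes of SREBP processing and turnover 5 fell and 3 rose. ERLIN1, which encodes a cholesterol-binding protein of the endoplasmic reticulum, fell from 181 ± 11.5 to 123 ± 6.57 CPM, among neighbours with a median of -0.50, and SPRING1, a regulator of SREBP processing, fell from 68.4 ± 2.56 to 56.2 ± 2.91 CPM. RNF145, a sterol-responsive ubiquitin ligase that is known as an LXR target, rose from 123 ± 7.40 to 175 ± 1.77 CPM at 0.51 ± 0.05 (SE; edgeR adjusted p = 9.68e-08). ERLIN2 rose from 82.1 ± 4.20 to 95.9 ± 2.87 CPM. The proteases that cut the SREBPs, MBTPS1 and MBTPS2, were not called (edgeR adjusted p = 0.447 and 0.428); they are named after their values were seen. Of 12 tested other sterol and isoprenoid genes 3 fell and 4 rose, with the sterol scaffold gene ERG28 at -0.43 ± 0.06 and NUS1, a subunit of dolichol synthesis, at -0.43 ± 0.06 on the log2 scale. Their neighbours had medians of -0.24 and -0.50, so NUS1 fell no more than the genes around it. EBPL, a relative of EBP, and ACAT1, the mitochondrial thiolase, rose by 0.34 ± 0.06 and 0.45 ± 0.05 (SE; largest edgeR adjusted p of the 4 genes = 8.05e-05).

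The other fatty acid genes fell in 17 of 24 and rose in 5, with a median log2 fold change of -0.32. The median of the other sterol and isoprenoid genes was 0.074, the reverse of the order among the members. The elongase gene ELOVL7 fell 3.45-fold, from 39.04, 35.00 and 33.1 CPM with the control guide to 10.6, 10.8 and 9.63 CPM in the knockout, and the malic enzyme gene ME1, a source of NADPH, fell 3.22-fold among neighbours with a median of -0.55. ACACB, the carboxylase at mitochondria, rose from 3.81 ± 0.0925 to 8.59 ± 0.575 CPM at 1.17 ± 0.10 (SE; edgeR adjusted p = 2.08e-09), and OXSM, of mitochondrial fatty acid synthesis, from 7.82 ± 0.533 to 12.1 ± 0.651 CPM. Of the 6 tested other oxysterol and LXR genes 3 rose and 2 fell. PLTP, the phospholipid transfer protein gene and a known LXR target, stood at 106, 93.5 and 97.9 CPM in the knockout and 13.7, 11.8 and 10.7 CPM in the control. This rise of 8.25-fold was the largest change in these lists, at 3.05 ± 0.08 (SE; edgeR adjusted p = 3.28e-17), among neighbours with a median of 0.36. RXRA, a partner receptor of the LXRs, rose from 5.51 ± 0.0359 to 8.69 ± 0.383 CPM, whereas RXRB fell from 47.02 ± 1.55 to 37.7 ± 1.27 CPM and the LXR target SMPDL3A from 21.7 ± 1.10 to 13.5 ± 0.163 CPM. SMPDL3A was at -0.68 ± 0.07 on the log2 scale among neighbours with a median of -0.53.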

How the data were processed

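RNA-seq counts of 6 H1299 samples were analysed, 3 of each group, with groups and replicate numbers taken from the sample titles. The authors deposited raw read counts per Ensembl gene, and per the submitters' processing notes TopHat2, HTSeq and FastQC were used with the build GRCh38.p7. The counter's settings, strand use included, were not given in the sources used here, so reads in overlapping genes can be dropped or misplaced. Identifiers were matched without version to GENCODE 29, which named 18595 of 18677 rows. Counts were tested in R 4.3.3 with edgeR 4.0.16 (filterByExpr, TMM, robust glmQLFit and glmQLFTest, Benjamini-Hochberg over all genes tested), and the SE is the log2 fold change over the square root of F. Replicates differed beyond counting error (chi-square per degree of freedom 2.28 to 9.83), so none was counted as a copy. The steps were tested on simulated data in which few genes were changed, equally up and down. That test does not cover data where most genes are called, as here. Alternatives were other scalings and filters, DESeq2 1.42.0, limma-voom (limma 3.58.1), stricter thresholds, a replicate block, leaving out each library, and taking out the median log2 fold change of 25 expressed neighbours on each side (log2 CPM above 3). Libraries hold 29532057 to 35941288 counts, and the least counted member, NR1H3, is the least precise (SE 0.10 on the log2 scale). Members and lists were chosen with earlier results of these data known. Values by library are printed by rule for up to 3 called rises and 3 called falls in each role and for all SREBP genes, FASN being added after its values were seen, and of each other list up to 2 rises and 2 falls are named.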

Additional observations from a re-analysis of the deposited data

How the results depend on the processing

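Of 136 comparisons of a count with an alternative, 127 stayed within 1.5 times the reported count. A test against a fold of 1.5 left 1556 genes higher and 1496 lower, with 1 member higher and 12 lower, 0 sterol enzymes higher and 8 lower, and 1 fatty acid gene lower. With the neighbour median taken out, 2 members and 1 sterol enzyme were higher. Leaving out each library in turn gave 26 to 27 members lower and 4 higher, and 16 sterol enzymes lower. Over these the log2 fold change of INSIG1 ranged from -0.0258 to 0.0609 and that of SREBF1 from -0.0416 to 0.1028. The log2 fold change of INSIG1 changed sign with the neighbour median taken out (-0.37), without SETDB1-knockout replicate 2 (-0.023) and without control replicates 2 (-0.013) and 3 (-0.026). That of SREBF1 changed sign with the neighbour median taken out (-0.10), without replicate 1 of the knockout (-0.0040) and replicate 3 of the control (-0.042), and that of NR1H3 with the neighbour median taken out (-0.10). None of these except INSIG1 with the neighbour median taken out was called, and the cause was not tested. With the replicate number as a block, 28 members were lower and 4 higher, with 5864 genes higher and 5839 lower. Deviations of same-numbered samples from their group means had correlations of 0.157, -0.0866 and 0.0616. So few samples cannot decide whether the numbers mark pairs, so the block was kept as an alternative only.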

Other observations

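Related genes of these pathways differed from each other within the same libraries, as log2 ratios of CPM that need no scaling between libraries; the pairs were chosen after their values were seen. The ratio of ACACB, the mitochondrial carboxylase gene, to ACACA, the lipogenic one, was -4.07, -4.13 and -4.07 in the knockout libraries and -5.85, -5.75 and -5.82 in the control libraries. The ratio of the mitochondrial thiolase gene ACAT1 to the cytosolic ACAT2 was -0.45, -0.48 and -0.46 against -1.08, -1.21 and -1.24. The ratio of SCD5 to SCD, both desaturase genes, was -7.03, -6.88 and -7.01 against -7.81, -7.87 and -7.84. These 3 ratios were higher in all 3 knockout libraries than in any control library. That of FADS3 to FADS1, neighbouring desaturase genes, went the other way, at -4.57, -4.58 and -4.64 in the knockout and -3.82, -3.89 and -4.03 in the control.

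The ratio of INSIG1 to INSIG2 was 3.17, 3.14 and 3.15 in the knockout and 2.60, 2.51 and 2.56 in the control, and that of SREBF1 to SREBF2 was 0.58, 0.56 and 0.64 and 0.28, 0.25 and 0.24. For the INSIG pair the neighbour medians differ in the same direction (0.38 and -0.54), and their part in the ratio was not tested. In these pairs the gene with the higher ratio was not always the one that rose: SCD5 also fell, from 20.9 ± 1.80 to 16.7 ± 0.994 CPM, and less than SCD.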
